A study of Rattus norvegicus with 32 samples.

Results

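AMPA and NMDA receptors carry most fast excitatory transmission in the hippocampus, and the genes that encode their pore-forming subunits were followed here across diets. The subunits were taken by symbol and comprised 4 AMPA receptor genes (Gria1, Gria2, Gria3 and Gria4) and 6 NMDA receptor genes (Grin1, Grin2a, Grin2b, Grin2c, Grin2d and Grin3a), so 10 of the 32883 genes counted. Each symbol matched a single gene, and all 10 passed the filter on low counts in every comparison.

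AMPA receptors are tetramers of GluA subunits that open within milliseconds of glutamate release and set the size of the synaptic current. NMDA receptors need an obligatory GluN1 subunit, encoded by Grin1, together with GluN2 or GluN3 subunits. They open only when glutamate and a co-agonist are bound and the membrane is depolarised, and the calcium they admit triggers long-term potentiation and depression. In the forebrain the share of GluN2A rises and that of GluN2B falls as synapses mature. GluN2D is found mainly in interneurons of the adult hippocampus, and GluN3A is most abundant early in postnatal life.

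Hippocampal RNA came from Sprague-Dawley rats aged 65 days, as total RNA made into TruSeq libraries, with 4 biological replicates in each of 8 groups. The diets were iron sufficient (IS), iron sufficient with choline (ISch), iron deficient (labelled ID, named FID for formerly iron-deficient in the study) and iron deficient with choline (labelled IDch, FIDch in the study). All males belong to the first sequencing batch and all females to the second, so effects of sex cannot be told apart from effects of batch. Total counts ranged from 3515806 to 9517503 in the 16 male libraries (smallest in FIDch replicate 2) and from 18439999 to 26616318 in the 16 female libraries. The study asked what early iron deficiency and prenatal choline leave behind in the adult hippocampus. All p-values measure the spread between these rats. Replicate numbers were not treated as pairs across groups, since correlations between libraries with the same number ran from -0.119 to 0.218 in males and from -0.16 to 0.184 in females.

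The tissue carried hippocampal markers throughout. Slc17a7, the vesicular glutamate transporter of excitatory neurons, stood at 2190 to 2540 CPM (counts over library size, scaled by the trimmed mean of M values) in males and 2130 to 2500 CPM in females. The CA1 marker Wfs1, the CA2 marker Rgs14 and the dentate gyrus marker Prox1 were detected in all 32 libraries. Among the most abundant markers of other lists were Gad2 (interneurons), S100b (astrocytes), Olig1 (oligodendrocyte precursors), Csf1r (microglia), Flt1 (endothelium), Prkcd (thalamus), Ppp1r1b (striatum), Calb2 (cerebellum), Hbb (blood) and Ttr (choroid plexus). Ttr reached 349.9 CPM in male FID replicate 4, against 14.5 CPM at most in any female library. In bulk tissue, fewer cells of a type and less RNA per cell cannot be told apart.

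Several libraries stood apart in ways that touch the receptor genes. In males, ISch replicates 1 and 2 and FIDch replicate 2 carry library names of another form than the other 13, and the labels give no reason. These 3 libraries had 359 to 374 CPM of Gria3 against 285 to 356.5 CPM in the other 13, without overlap, and 211 to 239.6 CPM of Grin2a against 56.6 to 216 CPM, with overlap. Their Dsp counts, a dentate marker, were 1.07 to 2.26 CPM against 3.045 to 11.4 CPM. Among females, Dsp was 1.37 to 2.22 CPM in all 8 libraries without choline and 10.05 to 18.2 CPM in all 8 with choline, so choline and whatever else set these libraries apart cannot be told apart. The summed dentate list (6 genes, led by Prox1, 4 of them tested, and in no library was the most abundant one at 0) was 262 to 305 CPM in female IS, 375 to 410 CPM in ISch, 284 to 312 CPM in FID and 343 to 415 CPM in FIDch. Finally, the female choline libraries whose names end in the numbers 1 to 3 (ISch replicates 2, 3 and 4 and FIDch replicate 4) had Wfs1 counts of 586 to 655 CPM. Those numbered 16 to 18 (ISch replicate 1 and FIDch replicates 1, 2 and 3) had 250.0 to 405.5 CPM. The meaning of these numbers is not given by the labels, and the split was seen only after the data were examined.

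**Figure D1:**
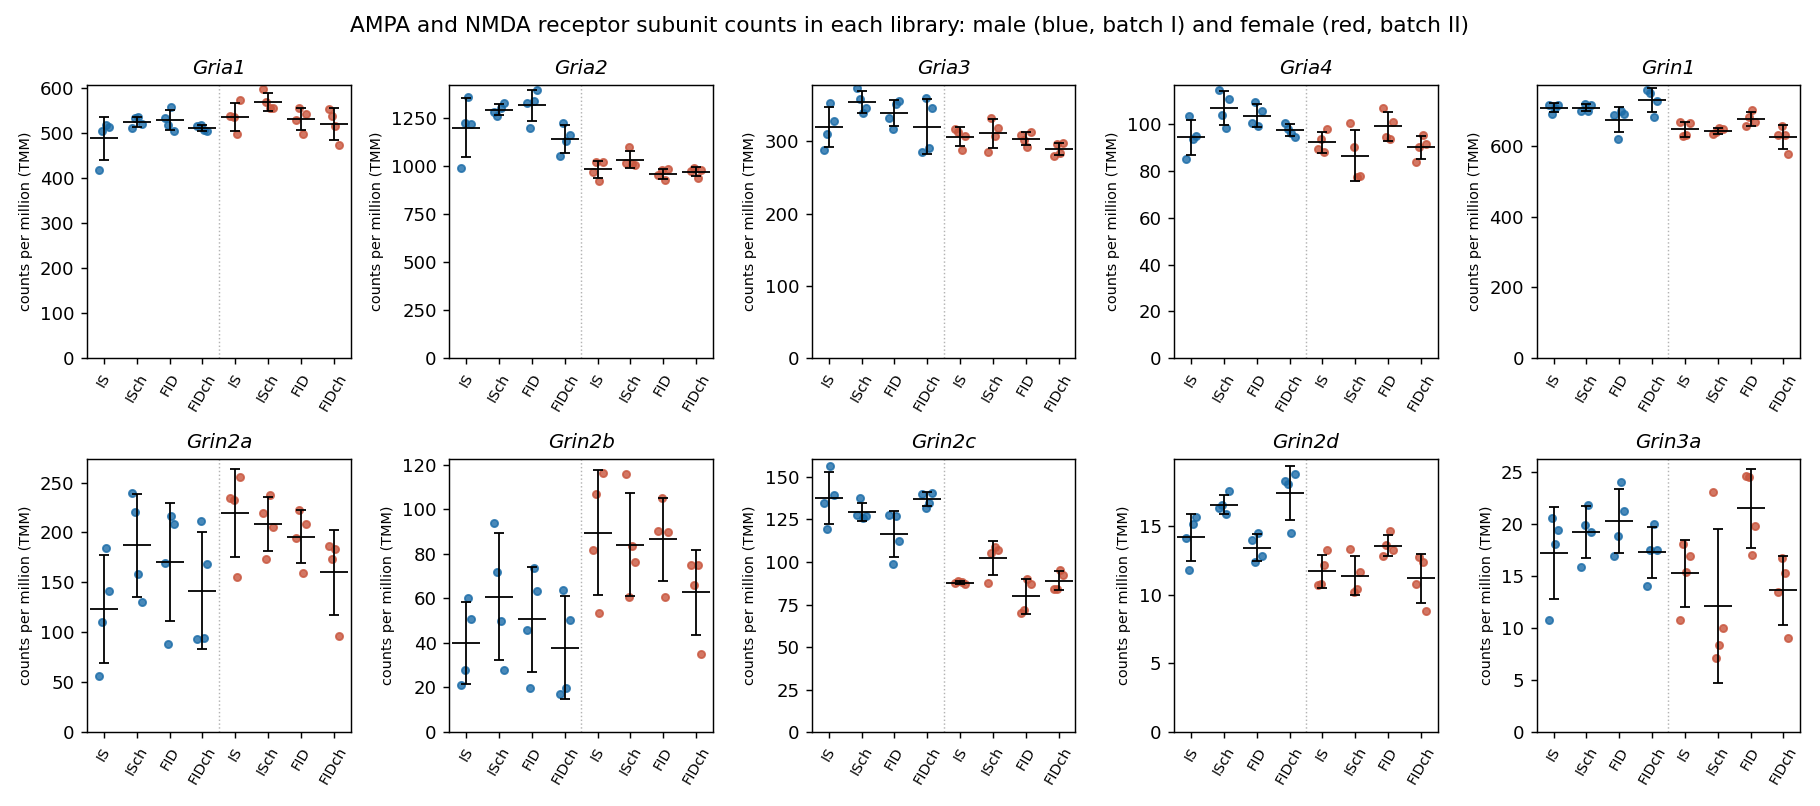
Normalised counts (CPM) of the 10 receptor subunit genes in each of 32 libraries, by diet group, with males (batch I) in blue and females (batch II) in red; points are libraries, black lines the mean and bars 1 SD (n = 4). Grin2a and Grin2b spread widely within groups, and over all male libraries they ran from 56.6 to 239.6 CPM and from 17.3 to 93.8 CPM.

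Differences between groups were tested for all genes together with the edgeR quasi-likelihood test. A gene met the criterion used by the study when its log2 fold change was beyond 0.2 in either direction and its unadjusted p was under 0.05. Adjusted p-values are Benjamini-Hochberg values over all genes tested in that comparison. Single genes were also compared by exact permutation tests, two-sided and unadjusted over 100 tests, in which 4 against 4 rats can give no p below 0.029.

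Gria1 (ENSRNOG00000045816) encodes GluA1, the subunit inserted into synapses during potentiation. In males its counts were 417, 503, 517 and 514 CPM in IS, 510.3, 532, 534 and 519 CPM in ISch, 532, 516, 556 and 504 CPM in FID, and 514, 517, 507 and 503.5 CPM in FIDch. Apart from the low IS replicate 1, all male libraries lay between 503 and 556 CPM. Female counts were 536.5, 535, 497 and 572 CPM in IS, 597, 567, 555 and 556 CPM in ISch, 527, 554, 498 and 541 CPM in FID, and 553, 537, 515 and 472 CPM in FIDch. All 4 female ISch values lay above all 4 FIDch values (exact permutation p = 0.029), with a log2 fold change of -0.13 (SE 0.0551, edgeR adjusted p = 0.604) that was inside the fold limit. Gria1 met the criterion in none of the 16 comparisons, and with DESeq2 in none. With the number in the library name as a block, an alternative chosen after seeing the data, Gria1 met it in female FIDch vs. ISch (-0.20, edgeR adjusted p = 0.074, in a range over the alternatives from 0.074 to 0.858).

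Gria2 (ENSRNOG00000054204) encodes GluA2, whose edited form makes AMPA receptors nearly impermeable to calcium. Male counts were 990.5, 1221, 1358 and 1219 CPM in IS, 1278, 1258, 1300 and 1328 CPM in ISch, 1325, 1198, 1336 and 1394 CPM in FID, and 1048, 1223, 1126 and 1158 CPM in FIDch. The FIDch males were lowest of the 3 groups other than IS: every FIDch value was below every ISch value (exact permutation p = 0.029), and only FID replicate 2 fell within the FIDch range. Gria2 fell in male FIDch vs. FID, from 1310 ± 82.9 to 1140 ± 73 CPM (mean ± SD, n = 4), a log2 fold change of -0.22 (SE 0.0621, edgeR adjusted p = 0.106). Without FID replicate 4 or FIDch replicate 1 it was -0.18 and -0.17, inside the fold limit. In male FIDch vs. ISch the log2 fold change was -0.19 (SE 0.0492, edgeR adjusted p = 0.162), just inside the fold limit. With DESeq2 that comparison gave -0.18 with an adjusted p of 0.0433, in a range over the alternatives from 0.0433 to 0.447. Without the 3 libraries with another form of name it was -0.25, and without ISch replicate 2 -0.20, both at the criterion.

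Female Gria2 counts were 967, 1017, 921 and 1018 CPM in IS, 1016, 1095, 1011 and 1004 CPM in ISch, 951, 977, 924 and 982 CPM in FID, and 973.5, 990.3, 938 and 976 CPM in FIDch. All ISch values were above all FIDch values (exact permutation p = 0.029), while FID and FIDch overlapped. In female FIDch vs. FID the log2 fold change of Gria2 was 0.01 (SE 0.0404, edgeR adjusted p = 0.904). Chosen after the values had been seen, the female minus male difference in that comparison was 0.21 for Gria2 (SE 0.0716, edgeR adjusted p = 0.114). DESeq2 gave 0.22 for Gria2 with an adjusted p of 0.045, in a range over the alternatives from 0.045 to 0.224. The edgeR value dropped inside the fold limit without male FID replicate 4 (0.18), male FIDch replicate 1 (0.18) or female FIDch replicate 2 (0.20).

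Gria3 (ENSRNOG00000007682) encodes GluA3, which pairs with GluA2 in receptors that cycle constitutively. Its male counts were 288, 310.1, 354 and 328.5 CPM in IS, 374, 359, 339.5 and 347 CPM in ISch, 333, 318, 352 and 356.5 CPM in FID, and 285, 360.0, 291 and 346 CPM in FIDch. The 3 highest were the libraries with another form of name, and the groups overlapped. Among females Gria3 stayed between 280.4 and 333 CPM. In males Gria3 had log2 fold changes of 0.15 in ISch vs. IS (edgeR adjusted p = 0.464) and -0.16 in FIDch vs. ISch (edgeR adjusted p = 0.363), both inside the fold limit. Gria3 passed it without IS replicate 3 in the former (0.21) and without FIDch replicate 2 in the latter (-0.21).

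Gria4 (ENSRNOG00000006957) encodes GluA4, a fast subunit prominent in interneurons. In males it was 85.3, 104, 93.9 and 94.9 CPM in IS, 115, 104, 98.3 and 111 CPM in ISch, 100.4, 109.5, 99.3 and 105.5 CPM in FID, and 100.5, 98.1, 96.1 and 94.6 CPM in FIDch. Male ISch and FID thus had the higher Gria4 values, and FIDch the narrowest range, inside that of IS. Female counts were 89.3, 93.55, 88.1 and 98.0 CPM in IS, 100.5, 90.5, 77.5 and 77.9 CPM in ISch, 107, 94.4, 93.8 and 101 CPM in FID, and 83.7, 90.0, 95.5 and 91.3 CPM in FIDch. Female ISch replicates 3 and 4 were the lowest of the 32 libraries. Gria4 had a log2 fold change of 0.18 in male ISch vs. IS (SE 0.0734, edgeR adjusted p = 0.455), which passed the fold limit without IS replicate 2 (0.22) or ISch replicate 3 (0.22). For Gria4 the female minus male difference in ISch vs. IS was -0.28 (SE 0.116, edgeR adjusted p = 0.253). That call ended without male IS replicate 1 (-0.22), male ISch replicate 1 (-0.24), female IS replicate 4 (-0.24), female ISch replicate 3 (-0.23) or female ISch replicate 4 (-0.23).

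Grin1 (ENSRNOG00000011726) encodes GluN1, the subunit every NMDA receptor requires, and it varied least. It overlaps Lrrc26 in the RefSeq annotation, with the same limit on shared reads as given for Grin2d below. Its within-group SD was 0.0549 log2 units in males, smaller than for all but 1.61% of 14237 genes, and 0.0517 in females, where 5% of 13628 genes had a smaller SD. Male counts were 717, 689.7, 706 and 716 CPM in IS, 698, 718, 699.6 and 715 CPM in ISch, 689, 620.4, 699 and 689.5 CPM in FID, and 759, 748, 683 and 727 CPM in FIDch. Female counts were 666, 627, 631 and 665 CPM in IS, 632, 639, 649.8 and 649 CPM in ISch, 655, 683, 701 and 667 CPM in FID, and 630.2, 657, 632 and 577 CPM in FIDch. FIDch males tended to lie above FID males and FIDch females below FID females, with one library crossing in each sex (male FIDch replicate 3 and female FIDch replicate 2). The log2 fold changes of Grin1 in FIDch vs. FID were 0.10 in males (SE 0.0566, edgeR adjusted p = 0.362) and -0.12 in females (SE 0.047, edgeR adjusted p = 0.211), both inside the fold limit. Tested directly, the female minus male difference was -0.24 (SE 0.0733, edgeR adjusted p = 0.0783), and without female FID replicate 3 it was -0.20, just inside the fold limit. DESeq2 gave -0.23 with an adjusted p of 0.0306, in a range over the alternatives from 0.0306 to 0.172.

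Grin2a (ENSRNOG00000033942) and Grin2b (ENSRNOG00000008766) encode GluN2A and GluN2B, the main GluN2 subunits of hippocampal pyramidal cells, with faster and slower decay respectively. Male Grin2a counts were 56.6, 111, 185 and 141 CPM in IS, 239.6, 221, 158 and 130.2 CPM in ISch, 169, 87.9, 216 and 208 CPM in FID, and 93.55, 211, 94.1 and 168 CPM in FIDch. Male Grin2b counts were 21.0, 27.9, 60.1 and 50.7 CPM in IS, 93.8, 71.8, 49.7 and 27.7 CPM in ISch, 45.7, 19.95, 73.6 and 63.4 CPM in FID, and 17.3, 63.9, 19.6 and 50.5 CPM in FIDch. The same libraries were high or low for both genes, and every group of males held high and low libraries, so all groups overlapped. Between the lowest and highest male library Grin2a differed 4.23-fold and Grin2b 5.42-fold. Their within-group SDs of 0.596 and 0.821 log2 units exceeded those of 96.5% and 98.8% of 14237 genes, whose median SD was 0.162.

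Female Grin2a counts were 235, 233, 155 and 255 CPM in IS, 219.9, 173, 237 and 205 CPM in ISch, 194, 222, 159 and 208 CPM in FID, and 186, 174, 183 and 96.65 CPM in FIDch. Female Grin2b counts were 81.7, 107, 53.5 and 116 CPM in IS, 116, 60.8, 83.7 and 76.2 CPM in ISch, 90.3, 105, 60.7 and 89.8 CPM in FID, and 75.1, 66.0, 74.9 and 34.8 CPM in FIDch. FIDch replicate 4 was the lowest female library for both genes, and the groups overlapped. Once group means had been removed, Grin2a and Grin2b correlated across the 16 male libraries with r = 0.952 and across the 16 female libraries with r = 0.922, a description of libraries that also share depth and dissection. Gria3 followed Grin2a in males (r = 0.913 over 16 libraries) but had r = -0.03 in the 16 female libraries. The per-library log2 ratio of Grin2a to Grin2b in males was 1.63 ± 0.25 for IS rats, 1.72 ± 0.369 for ISch rats, 1.82 ± 0.251 for FID rats and 2.04 ± 0.364 for FIDch rats (mean ± SD, n = 4). In females it was 1.33 ± 0.231, 1.34 ± 0.279, 1.20 ± 0.143 and 1.37 ± 0.084 in the same order, with overlap among all groups in each sex.

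**Figure D2:**
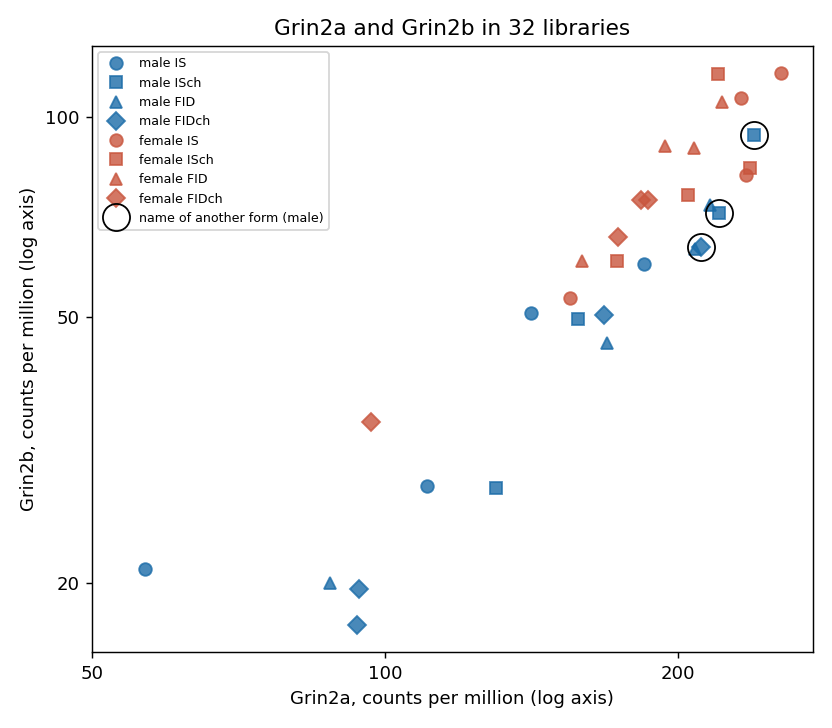
Normalised counts of Grin2a (x axis, CPM) and Grin2b (y axis, CPM) on log axes, 1 point per library; colour gives sex, symbol gives diet group, and black rings mark the 3 male libraries with another form of name. Both genes rise and fall together, and the ringed libraries lie at 211 CPM of Grin2a or more.

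At the criterion, Grin2a rose in male ISch vs. IS, from 123 ± 53.8 to 187 ± 51.5 CPM (mean ± SD, n = 4), with a log2 fold change of 0.61 (SE 0.278, edgeR adjusted p = 0.472). Both of the highest ISch libraries carry names of another form, and without them the log2 fold change of Grin2a was 0.22 with the call ended. The call also ended without IS replicate 1 (0.36), IS replicate 2 (0.56), IS replicate 4 (0.68), ISch replicate 1 (0.47) or ISch replicate 2 (0.52), with DESeq2, with all 4 groups in one fit and with replicate number as a block. Grin2b had a like log2 fold change of 0.61 with a larger error (SE 0.352, edgeR adjusted p = 0.562). It passed the criterion without IS replicate 3 (0.88) or ISch replicate 4 (0.86) and with all genes of at least 1 count kept. Without the libraries of another name form the sign of Grin2b turned (-0.05).

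Grin2a fell in female FIDch vs. IS, from 219 ± 44.1 to 160 ± 42.6 CPM (mean ± SD, n = 4), with a log2 fold change of -0.46 (SE 0.202, edgeR adjusted p = 0.375). Without FIDch replicate 4 the value was -0.28 and the call ended, as it did without IS replicate 1 (-0.42), IS replicate 2 (-0.43), IS replicate 4 (-0.38) or FIDch replicate 2 (-0.50), with DESeq2 and with replicate number as a block. In female FIDch vs. ISch the log2 fold changes were -0.38 for Grin2a (SE 0.182, edgeR adjusted p = 0.628) and -0.42 for Grin2b (SE 0.242, edgeR adjusted p = 0.681). Grin2a passed the criterion there without ISch replicate 2 (-0.46), FIDch replicate 1 (-0.46), FIDch replicate 3 (-0.45) or FIDch replicate 4 (-0.21), with both other edgeR tests, with all genes of at least 1 count kept, with all 4 groups in one fit and with replicate number as a block. Grin2b passed it with replicate number as a block. With the 2 sets of library name numbers as a block, an alternative chosen after seeing the data, Grin2a had -0.67 (adjusted p = 0.0923, edgeR) and Grin2b -0.87 (adjusted p = 0.0585, edgeR). Over the alternatives, adjusted p ranged from 0.0923 to 0.859 for Grin2a and from 0.0585 to 0.861 for Grin2b.

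Genes close to each receptor subunit in pattern were named over the 32 libraries after group means had been removed, out of 12315 genes. For Grin2a they were Kcnj6 (r = 0.976, rho = 0.954) and Cacna1e (r = 0.975, rho = 0.967), a potassium channel and a calcium channel gene. For Grin2b they were Zbtb20 (r = 0.975, rho = 0.962), a transcription factor gene, and Huwe1 (r = 0.963, rho = 0.963), a ubiquitin ligase gene. Grin3a was closest to Gda (r = 0.902, rho = 0.791) and Cadm1 (r = 0.896, rho = 0.756). Gria2 was closest to Mtfr2 (r = 0.891, rho = 0.709) and Zfp266 (r = 0.878, rho = 0.685), with r = 0.962 and 0.963 in the 16 male libraries but 0.383 and 0.542 in the 16 female ones. Gria1 was closest to Ildr2 (r = 0.888, rho = 0.776) and Cers6 (r = 0.878, rho = 0.753). Gria3 had Atrn (r = 0.823, rho = 0.78) and Dgki (r = 0.806, rho = 0.809), with r = 0.922 and 0.899 in the 16 male libraries but 0.42 and 0.388 in the 16 female ones. Grin1 had Inpp5j (r = 0.798, rho = 0.735). The nearest genes were less alike for Grin2c (Zfp950, r = 0.773, rho = 0.748, and Col11a2, r = 0.75, rho = 0.722) and Grin2d (Ptprs, r = 0.712, rho = 0.646). The lowest values were those of Gria4 (Susd1, r = 0.654, rho = 0.565, and Tmem18, r = 0.634, rho = 0.576).

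The 3 remaining NMDA receptor genes, Grin2c, Grin2d and Grin3a, gave most of the pairwise calls at the criterion in these data. Their promoters are shown because of these calls, which rest on unadjusted p. For none of these calls was the edgeR adjusted p under 0.05 (smallest 0.0866, Grin3a in female FIDch vs. FID). The windows of 300 bases come from RefSeq on the rat build GRCr8 and are written 5′ to 3′ on the strand of the gene, which is the minus strand for all 3. They lie at chr10:101005089-101005388 for Grin2c, chr1:105481187-105481486 for Grin2d and chr5:69001509-69001808 for Grin3a. Capitals mark E-boxes (CANNTG, which reads the same class of site on both strands). Of 33469 promoters of this length, 72.1% hold an E-box.
Grin2c: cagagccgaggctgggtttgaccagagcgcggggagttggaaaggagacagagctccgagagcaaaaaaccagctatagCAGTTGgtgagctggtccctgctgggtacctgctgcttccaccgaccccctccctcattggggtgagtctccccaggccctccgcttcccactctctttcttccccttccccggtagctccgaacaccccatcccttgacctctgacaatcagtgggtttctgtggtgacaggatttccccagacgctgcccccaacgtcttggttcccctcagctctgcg
Grin2d: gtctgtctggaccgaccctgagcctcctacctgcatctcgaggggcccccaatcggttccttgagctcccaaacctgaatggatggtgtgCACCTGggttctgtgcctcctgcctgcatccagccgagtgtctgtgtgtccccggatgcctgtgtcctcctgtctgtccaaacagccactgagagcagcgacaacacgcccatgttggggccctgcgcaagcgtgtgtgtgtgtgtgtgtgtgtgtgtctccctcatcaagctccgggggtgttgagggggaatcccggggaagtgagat
Grin3a: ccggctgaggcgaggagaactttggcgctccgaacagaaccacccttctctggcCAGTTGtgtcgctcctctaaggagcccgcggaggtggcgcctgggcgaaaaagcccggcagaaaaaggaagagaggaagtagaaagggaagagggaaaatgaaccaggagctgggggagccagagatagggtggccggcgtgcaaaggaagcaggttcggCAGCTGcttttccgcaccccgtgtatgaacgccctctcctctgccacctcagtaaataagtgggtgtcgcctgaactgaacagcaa
Grin2c and Grin2d had 1 E-box each and Grin3a had 2. None of the 3 windows held a GC box (GGGCGG, in 33.1% of promoters), a cyclic AMP response element (TGACGTCA, 1.83%) or a TATA box (TATAAA, 14.2%), each searched on both strands. The Grin2d window has an unbroken run of alternating T and G that spans 26 bases, and 0.0418% of promoters hold such a run at least as long. A match is a description of the letters only. The promoter table held 5 of the 10 receptor genes. Of the windows not shown, that of Grin1 held 1 GC box and 2 E-boxes, and that of Gria4 held 2 E-boxes.

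Grin2c (ENSRNOG00000003280) encodes GluN2C, a subunit with weak magnesium block that in the hippocampus is found in astrocytes and some interneurons. In males Grin2c was 135, 119, 156 and 139.6 CPM in IS, 128, 137, 126 and 127 CPM in ISch, 128, 98.9, 127 and 112 CPM in FID, and 140.0, 132, 135 and 141 CPM in FIDch. All FIDch males lay above all FID males (exact permutation p = 0.029), and FID overlapped IS. Grin2c fell in male FID vs. IS, from 138 ± 15.3 to 117 ± 13.8 CPM, with a log2 fold change of -0.24 (SE 0.0988, edgeR adjusted p = 0.786). It rose in male FIDch vs. FID to 137 ± 4.2 CPM (mean ± SD, n = 4), a log2 fold change of 0.23 (SE 0.0781, edgeR adjusted p = 0.162). FID replicate 2, the lowest library, bore on both: without it Grin2c had -0.17 in FID vs. IS and 0.16 in FIDch vs. FID, neither at the criterion. The former call also ended without IS replicate 3 (-0.17), IS replicate 4 (-0.24) or FID replicate 4 (-0.22).

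Female Grin2c counts were 87.65, 88.95, 88.0 and 86.9 CPM in IS, 87.8, 105, 109 and 107 CPM in ISch, 70.1, 71.5, 90.25 and 87.2 CPM in FID, and 84.3, 83.9, 95.2 and 92.4 CPM in FIDch. The IS rats were nearly identical, and 3 of 4 ISch rats stood above them, while FID rats split into a low and a high pair. Grin2c rose in female ISch vs. IS, from 87.9 ± 0.858 to 102 ± 9.76 CPM (mean ± SD, n = 4), with a log2 fold change of 0.22 (SE 0.0627, edgeR adjusted p = 0.113). Without ISch replicate 1, the library that matched the IS values, it was 0.28 with an adjusted p of 0.00322 by edgeR, and with DESeq2 0.22 with an adjusted p of 0.0379; the range over the alternatives was 0.00322 to 0.252. Without ISch replicate 3 (0.19) or ISch replicate 4 (0.20) Grin2c was inside the fold limit. Grin2c fell in female FIDch vs. ISch by a log2 fold change of -0.20 (SE 0.0758, edgeR adjusted p = 0.586). That call ended without ISch replicate 2 (-0.19), ISch replicate 3 (-0.17), ISch replicate 4 (-0.18), FIDch replicate 1 (-0.17) or FIDch replicate 2 (-0.17), with library size alone, with all genes of at least 1 count kept, with replicate number as a block, and with the library name numbers as a block (-0.11). In female FID vs. IS and FIDch vs. FID, Grin2c met the criterion only without FID replicate 3 (-0.20 and 0.22).

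Between the sexes, the female minus male difference of Grin2c in ISch vs. IS was 0.30 (SE 0.103, edgeR adjusted p = 0.171), at the criterion in all 23 alternatives, with adjusted p from 0.0351 to 0.277. Astrocyte markers were set beside Grin2c. The summed list (6 of 6 genes tested, led by S100b) was 4250 to 4390 CPM in female IS and 4220 to 4780 CPM in ISch, and 1 gene met the criterion. That gene was Aldh1l1, with a log2 fold change of 0.36 in female ISch vs. IS (edgeR adjusted p = 0.0215) and -0.23 in male ISch vs. IS (edgeR adjusted p = 0.455). Aldh1l1 fell in male FID vs. IS (-0.23, edgeR adjusted p = 0.786), as Grin2c did. Aqp4 went the other way from Grin2c: it fell in male FIDch vs. FID (-0.27, edgeR adjusted p = 0.144), and its male interaction was -0.32 (edgeR adjusted p = 0.247). The part of astrocytes in the Grin2c values was not tested. All 4 dentate markers tested met the criterion in female ISch vs. IS, among them Prox1 (0.39, edgeR adjusted p = 0.0227).

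Grin2d (ENSRNOG00000021063) encodes GluN2D, which gives receptors with very slow decay. Male counts were 14.2, 11.8, 15.1 and 15.7 CPM in IS, 16.3, 16.5, 15.9 and 17.6 CPM in ISch, 13.99, 12.4, 14.47 and 12.85 CPM in FID, and 18.3, 18.1, 14.48 and 18.8 CPM in FIDch. Both male choline groups were high: all ISch values lay above all IS values and all FIDch values above all FID values (exact permutation p = 0.029 for each), although FIDch replicate 3 came close to the highest FID rat. Grin2d rose in male FIDch vs. FID, from 13.4 ± 0.967 to 17.4 ± 1.97 CPM (mean ± SD, n = 4), with a log2 fold change of 0.36 (SE 0.112, edgeR adjusted p = 0.13). It met the criterion in all 18 alternatives, with log2 fold changes from 0.32 to 0.46. Grin2d also rose in male FIDch vs. IS, with a log2 fold change of 0.29 (SE 0.129, edgeR adjusted p = 0.623). This second call ended without IS replicate 1 (0.29), IS replicate 2 (0.21), FIDch replicate 1 (0.25), FIDch replicate 2 (0.27) or FIDch replicate 4 (0.24), with DESeq2, with replicate number as a block and without the libraries of another name form. In male ISch vs. IS the log2 fold change of Grin2d was 0.23 (SE 0.11, edgeR adjusted p = 0.495), and it met the criterion without IS replicate 3 (0.26) or IS replicate 4 (0.27) and with all 4 groups in one fit.

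Female Grin2d counts were 10.7, 10.8, 12.15 and 13.2 CPM in IS, 13.3, 10.2, 10.45 and 11.7 CPM in ISch, 12.8, 13.6, 14.6 and 13.3 CPM in FID, and 10.8, 12.7, 12.4 and 8.80 CPM in FIDch. The FID females were high as a group, with all values above all FIDch values (exact permutation p = 0.029) and some overlap with IS. Grin2d rose in female FID vs. IS, from 11.7 ± 1.2 to 13.6 ± 0.775 CPM, with a log2 fold change of 0.21 (SE 0.0897, edgeR adjusted p = 0.412). It fell in female FIDch vs. FID to 11.2 ± 1.81 CPM (mean ± SD, n = 4), a log2 fold change of -0.28 (SE 0.115, edgeR adjusted p = 0.229). The rise ended as a call without IS replicate 1 (0.17), IS replicate 2 (0.17), FID replicate 2 (0.21) or FID replicate 3 (0.17), with both other edgeR tests and with all 4 groups in one fit. The fall ended as a call without FID replicate 2 (-0.28), FID replicate 3 (-0.24), FID replicate 4 (-0.29), FIDch replicate 1 (-0.26) or FIDch replicate 4 (-0.18).

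Choline in formerly iron-deficient rats thus went with more Grin2d in males and less in females. The female minus male difference in FIDch vs. FID was -0.66 (SE 0.164, edgeR adjusted p = 0.0394). It was computed because these values had been seen, so its p-value is not that of a comparison chosen beforehand. It met the criterion in all 23 alternatives, with log2 values from -0.75 to -0.56 and adjusted p from 0.0148 to 0.0943. Grin2d overlaps Grwd1 in the RefSeq annotation, and how reads shared by both were counted is not stated. For Grwd1 the female minus male difference in the same comparison was -0.36 (SE 0.139, edgeR adjusted p = 0.162). Among the interneuron markers (7 genes, 6 tested, led by Gad2), whose summed level was 769 to 906 CPM in male FID, 736 to 894 CPM in male FIDch, 792 to 858 CPM in female FID and 802 to 911 CPM in female FIDch, the GABA transporter gene Slc32a1 fell in female FIDch vs. FID with a log2 fold change of -0.25 (edgeR adjusted p = 0.0425). Its female minus male difference was -0.44 (edgeR adjusted p = 0.03), and that of Pvalb was -0.33 (edgeR adjusted p = 0.178). Gad2, the most abundant of the list, went the other way (0.31, edgeR adjusted p = 0.0636), and Vip fell in male FIDch vs. FID (-0.27, edgeR adjusted p = 0.261), where Grin2d rose. The part of interneurons in the Grin2d values was not tested.

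Grin3a (ENSRNOG00000005723) encodes GluN3A, which binds glycine and lowers the calcium flow through NMDA receptors. Female counts were 10.7, 18.04, 15.3 and 16.9 CPM in IS, 23.1, 7.07, 8.38 and 9.98 CPM in ISch, 24.6, 24.5, 16.95 and 19.8 CPM in FID, and 13.4, 16.7, 15.25 and 9.03 CPM in FIDch. FID females were the high group, above every FIDch rat (exact permutation p = 0.029) and above every IS rat but replicate 2, which passed FID replicate 3. ISch split into a single high library and 3 low ones. Grin3a rose in female FID vs. IS, from 15.2 ± 3.22 to 21.5 ± 3.75 CPM, with a log2 fold change of 0.49 (SE 0.154, edgeR adjusted p = 0.254), and met the criterion in 16 of 17 alternatives. The exception was the fit of all 4 groups together (0.49, edgeR adjusted p = 0.696). Grin3a fell in female FIDch vs. FID to 13.6 ± 3.34 CPM (mean ± SD, n = 4), a log2 fold change of -0.66 (SE 0.178, edgeR adjusted p = 0.0866). The fall met the criterion in all 17 alternatives, with log2 values from -0.78 to -0.51 and adjusted p from 0.00902 (DESeq2) to 0.217.

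Grin3a and Wfs1 stood in opposite order among the female choline libraries. The 4 libraries numbered 1 to 3 in their names had 7.07 to 9.98 CPM of Grin3a and the 4 numbered 16 to 18 had 13.4 to 23.1 CPM. The summed CA1 list (4 genes, led by Wfs1) was 992, 764, 695 and 821 CPM in female IS, 736, 976, 910.0 and 1017 CPM in ISch, 813, 834, 858 and 814 CPM in FID, and 647, 692, 493 and 1078 CPM in FIDch. In ISch vs. IS the log2 fold change of Grin3a was -0.33 (SE 0.321, edgeR adjusted p = 0.679). Without ISch replicate 1 it was -0.85, at the criterion, with an adjusted p of 0.0205 by edgeR (range over the alternatives 0.0205 to 0.904). In FIDch vs. ISch leaving out the same library gave 0.68, at the criterion, against 0.17 with it. Grin3a had -0.29 there with the library name numbers as a block and -0.02 without ISch replicate 2, so its direction was not stable. FIDch vs. FID holds FIDch replicate 4, the 1 FIDch library of the first set, and without it the fall of Grin3a was -0.51. Markers of other cells moved in female FIDch vs. FID as well, where Grin3a and Grin2d fell: Dsp (2.95, edgeR adjusted p = 4.33e-05), Prox1 (0.39, edgeR adjusted p = 0.00559), Aqp4 (0.30, edgeR adjusted p = 0.0239) and Aldh1l1 (0.36, edgeR adjusted p = 0.0346) rose. Grin3a overlaps Ppp3r2 in the RefSeq annotation, and how reads shared by both were counted is not stated. The part of dissection or of CA1 content in these Grin3a values was not tested.

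Male Grin3a counts were 10.8, 20.6, 18.02 and 19.4 CPM in IS, 15.8, 19.85, 21.8 and 19.2 CPM in ISch, 16.9, 18.8, 24.0 and 21.25 CPM in FID, and 14.01, 17.5, 20.01 and 17.4 CPM in FIDch. All male groups overlapped, and IS replicate 1 was lowest. The log2 fold change in male FIDch vs. FID was -0.24 (SE 0.133, edgeR adjusted p = 0.366), and it met the criterion without FID replicate 1 (-0.31) or FIDch replicate 3 (-0.33) and with replicate number as a block. For Grin3a the female minus male difference in FIDch vs. FID was -0.44 (SE 0.243, edgeR adjusted p = 0.348), so a difference between the sexes was not shown. It met the criterion without male FIDch replicate 1 (-0.53), female FID replicate 3 (-0.50) or female FIDch replicate 2 (-0.55).

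**Figure D3:**
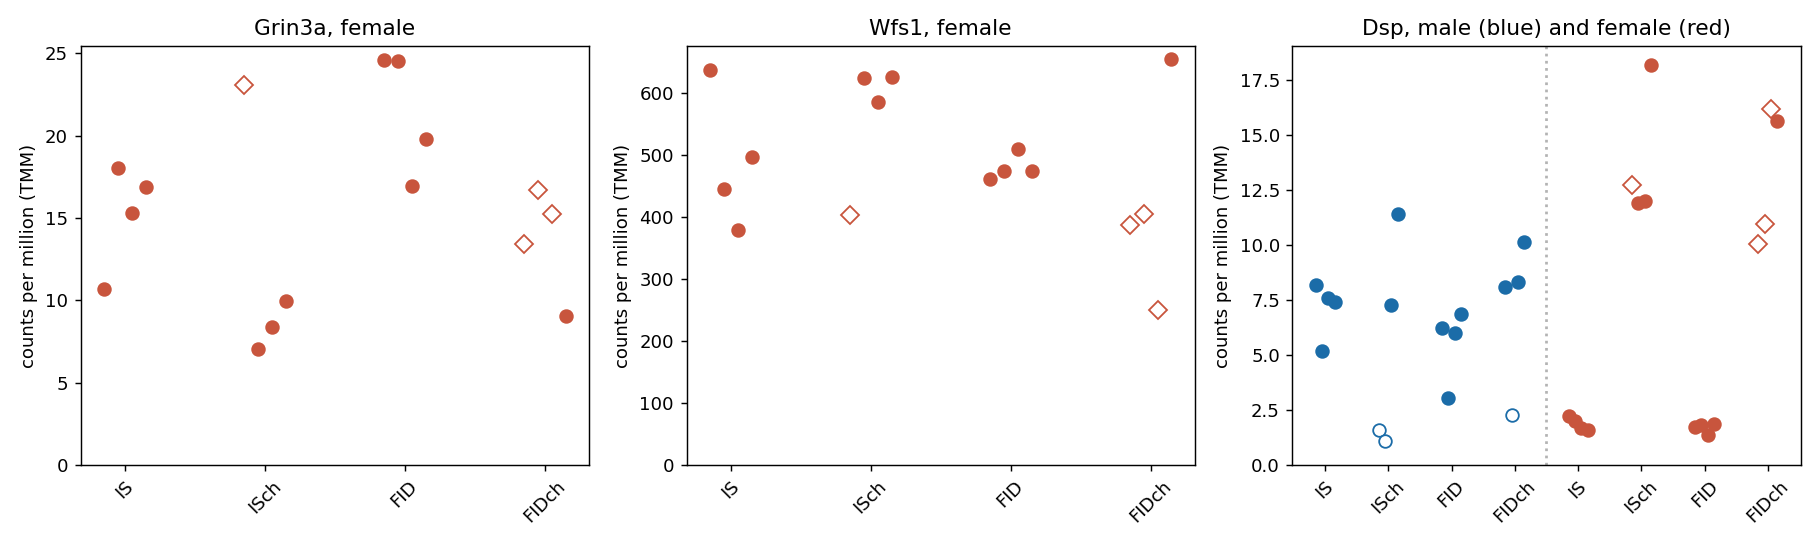
Normalised counts (CPM) of Grin3a and of the CA1 marker Wfs1 in female libraries and of the dentate marker Dsp in all libraries, 1 point per library by diet group. Open diamonds are female choline libraries numbered 16 to 18 and open circles the 3 male libraries with another form of name; Dsp separates female groups with choline (10.05 CPM or more) from those without (2.22 CPM or less).

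Early iron deficiency without choline was read from FID vs. IS. In male FID vs. IS, 1 of the 10 genes met the criterion (Grin2c, lower), against 4.62% of the 13851 genes tested. In female FID vs. IS there were 2 (Grin2d and Grin3a, both higher), against 6.47% of 14632 genes. Adjusted p was under 0.05 by edgeR for 0 of the 10 in both, against 0% and 0.191% of all genes, with 1 and 2 at an unadjusted p under 0.05 and 0 by DESeq2 at the adjusted threshold. No receptor gene had groups without overlap, against 3.52% of all genes in males and 6.49% in females. The female minus male difference in FID vs. IS met the criterion for 0 of 10 genes (edgeR, 0 also at unadjusted p and by DESeq2), against 7.64% of 15138 genes, and 0.0396% of all genes passed the adjusted threshold. Without single libraries Gria2 (-0.23 without male IS replicate 3, -0.22 without male FID replicate 2), Grin2a (-0.89 and -0.87 without the same libraries) and Grin2d (0.37, 0.33 and 0.35 without male IS replicate 2, male FID replicate 3 or female IS replicate 4) met it. In male FID vs. IS itself, Grin2a met it without IS replicate 3 (0.73) or FID replicate 2 (0.69), Grin2b without FID replicate 2 (0.62), Grin2a also with replicate number as a block, and Gria2 without IS replicate 3 (0.20), and in female FID vs. IS Grin2a did so without IS replicate 3 (-0.30).

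Prenatal choline in iron-sufficient rats was read from ISch vs. IS. In males 1 of the 10 genes met the criterion (Grin2a, higher), against 8.06% of 13956 genes, and 3 had an unadjusted p under 0.05. In females 1 did (Grin2c, higher), against 10.3% of 14466 genes. By edgeR 0 of the 10 passed the adjusted threshold in either sex, against 0.208% and 2.54% of all genes, while 0 in males and 1 in females (Grin2c) did so by DESeq2. Groups without overlap were found for 1 gene in males (Grin2d, 6.15% of all genes) and 0 in females (10.1%). The female minus male difference met the criterion for 2 genes (Gria4 and Grin2c), against 14.2% of 15141 genes, and for 0 at the adjusted threshold by edgeR, against 1.28%, and 0 by DESeq2. In single left-out fits of this difference, Grin2a met the criterion without male IS replicate 3 (-0.95), male ISch replicate 4 (-0.83) or female IS replicate 3 (-0.83) and with all genes of at least 1 count kept, Grin2b without male ISch replicate 4 (-0.96), and Grin2d and Grin3a without female ISch replicate 1 (-0.36 and -1.02).

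Choline in formerly iron-deficient rats was read from FIDch vs. FID. FID vs. IS shares the FID rats with it, so opposite directions of a receptor gene in both (Grin2c in males, Grin2d and Grin3a in females) are not separate results. In males 3 of 10 genes met the criterion (Gria2 lower, Grin2c and Grin2d higher), against 13% of 13945 genes. In females 2 did (Grin2d and Grin3a, both lower), against 12.7% of 14680 genes, and 4 had an unadjusted p under 0.05. By edgeR 0 passed the adjusted threshold in males or females, against 1.28% and 2.28% of all genes, and by DESeq2 1 did (Grin3a in females). Groups without overlap were found for 2 genes in each sex (Grin2c and Grin2d in males, Grin2d and Grin3a in females), against 10.8% and 11.9% of all genes. For the added female minus male difference, 3 genes met the criterion (Gria2, Grin1 and Grin2d), against 17.7% of 15143 genes, and 1 passed the adjusted threshold by edgeR (Grin2d), against 2.88%, while all 3 did so by DESeq2. Leaving out male FID replicate 2 brought Grin2a (-0.52) and Grin2b (-0.81) to the criterion in males. In females Grin2b met it without FID replicate 3 (-0.60), FIDch replicate 1 (-0.57) or FIDch replicate 3 (-0.56), with both other edgeR tests and with all genes of at least 1 count kept.

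**Figure D4:**
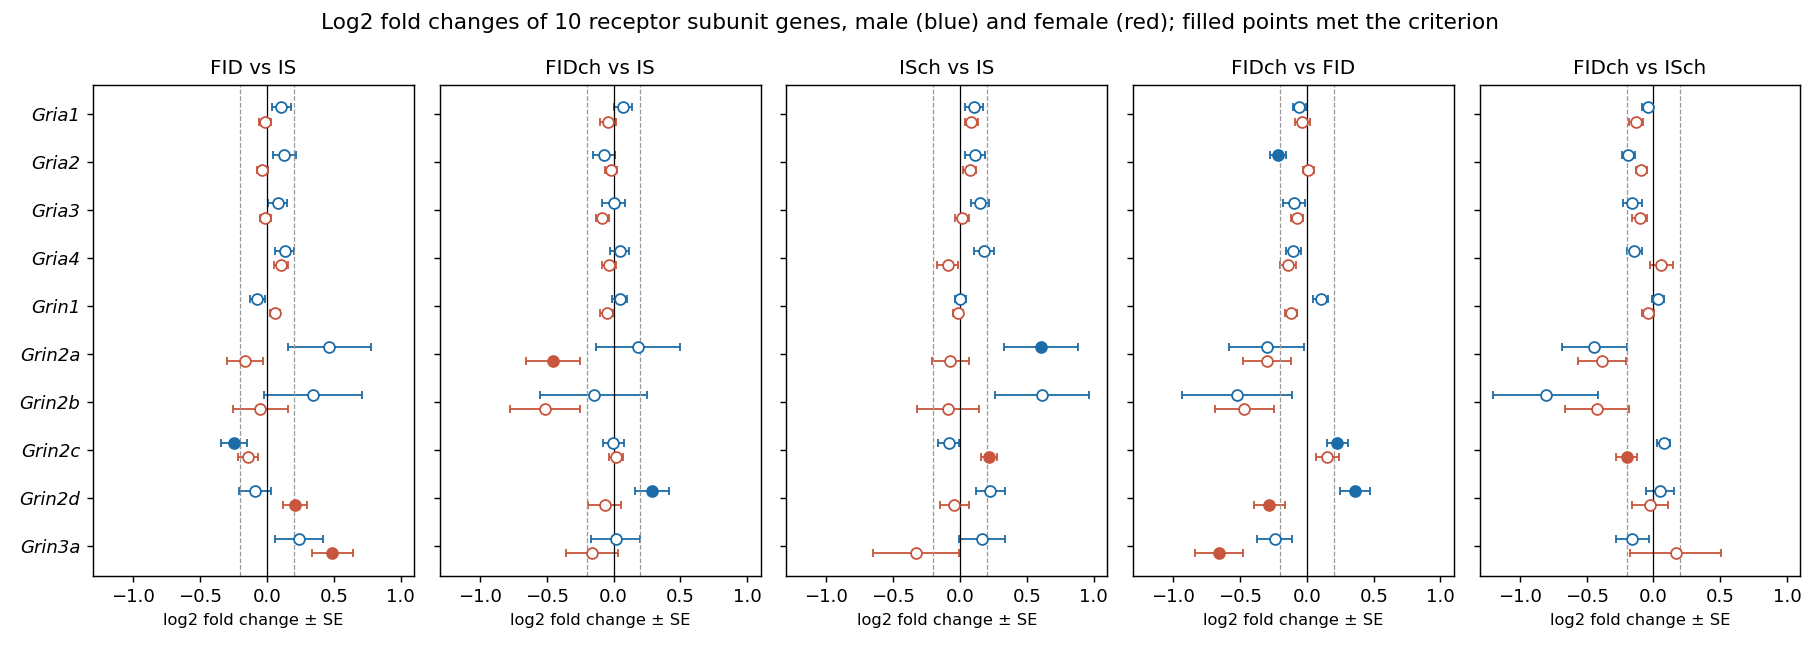
Log2 fold changes (x axis) of the 10 receptor genes in 5 pairwise comparisons, males in blue and females in red, with bars of 1 SE. Filled points met the criterion and dashed lines mark the fold limit of 0.2; Grin2d in FIDch vs. FID is 0.36 in males and -0.28 in females.

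Iron deficiency among choline-supplemented rats was read from FIDch vs. ISch. In males 0 of 10 genes met the criterion by edgeR and 0 by DESeq2, against 8.12% of 13958 genes by edgeR, and 3 (Gria2, Gria3 and Gria4) had an unadjusted p under 0.05. The log2 fold change of Gria4 was -0.14 (edgeR adjusted p = 0.309). In females 1 gene did (Grin2c, lower), against 4.57% of 14521 genes. By edgeR 0 passed the adjusted threshold in either sex, against 0.043% and 0.00689% of all genes, and by DESeq2 1 did (Gria2 in males). Without overlap were 1 gene in males (Gria2, 7.67% of all genes) and 2 in females (Gria1 and Gria2, 5.08%). Leaving out male FIDch replicate 2 brought Gria2 (-0.22), Gria3 (-0.21), Grin2a (-0.67) and Grin2b (-1.10) to the criterion. Grin2a (-0.58) and Grin2b (-1.05) met it without male ISch replicate 4, and Grin2b without male FIDch replicate 4 (-1.06). Both met it with all genes of at least 1 count kept, and Grin2a with replicate number as a block.

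Against the IS controls, FIDch rats had 1 receptor gene at the criterion in males (Grin2d, higher), against 6.12% of 13693 genes, and 1 in females (Grin2a, lower), against 8.98% of 14662 genes. By edgeR and by DESeq2 0 passed the adjusted threshold, against 0.131% and 0.907% of all genes by edgeR. Groups overlapped for all 10 genes, with 5.32% and 7.8% of all genes free of overlap. The female minus male difference in FIDch vs. IS met the criterion for 0 genes by edgeR, at unadjusted p and by DESeq2, against 12.9% of 15177 genes, and 0.362% of all genes passed the adjusted threshold. For Grin2d it met the criterion without male FIDch replicate 3 (-0.44), female FIDch replicate 2 (-0.42) or female FIDch replicate 3 (-0.40). In female FIDch vs. IS, Grin2b did so without IS replicate 3 (-0.70) and with all genes of at least 1 count kept.

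The interaction of iron and choline asked whether the difference between FIDch and FID departs from that between ISch and IS. In males 4 of 10 genes met the criterion, against 14.4% of 14314 genes. The AMPA receptor genes Gria2 (-0.32, edgeR adjusted p = 0.204), Gria3 (-0.24, edgeR adjusted p = 0.3) and Gria4 (-0.27, edgeR adjusted p = 0.205) were negative. Of the differences behind these 3 values, only that of Gria2 in male FIDch vs. FID met the criterion. Grin2c had the opposite sign (0.32, edgeR adjusted p = 0.223). Gria2, Gria4 and Grin2c met the criterion in all 23 alternatives. Gria3 lost it without IS replicate 1 (-0.19), IS replicate 2 (-0.22), ISch replicate 1 (-0.22), ISch replicate 2 (-0.23), FID replicate 3 (-0.22), FID replicate 4 (-0.21), FIDch replicate 1 (-0.18) or FIDch replicate 3 (-0.19). Grin2a met it without IS replicate 3 (-1.16), ISch replicate 4 (-1.05), FID replicate 2 (-1.12) or FIDch replicate 2 (-1.14), as did Grin2b (-1.40, -1.38, -1.41 and -1.44), and both met it with all genes of at least 1 count kept. Grin3a met it with replicate number as a block.

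In females the interaction met the criterion for 0 of 10 genes by edgeR, with 0 at an unadjusted p under 0.05 and 0 by DESeq2, against 7.33% of 14975 genes. All 10 female values were negative, from -0.37 to -0.05, with a median of -0.11 against 8e-04 over all genes. Of the 10 male values 7 were negative and 3 positive, with a median of -0.25 against 0.0095. The genes were read in the same rats and some varied together (Grin2a with Grin2b, r = 0.922 in females), so these signs are not separate results. By edgeR and by DESeq2 0 receptor genes passed the adjusted threshold for the interaction in either sex, against, by edgeR, 0.00699% of all genes in males and 0.00668% in females. Without female ISch replicate 1 the interaction of Grin3a turned to 0.20, not at the criterion. Over the alternatives the female values of Gria4 and Grin2c also turned positive (0.036 and 0.002 at most), not at the criterion.

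Markers of cell types and regions that met the criterion in a comparison with a receptor gene at it are given with their log2 fold changes. In male FID vs. IS, where Grin2c fell, Ttr (5.80, largely from the 349.9 CPM in FID replicate 4) rose, and Aldh1l1 (-0.23), Mbp (-0.22), Cldn5 (-0.29), Bok (-0.31) and Ppp1r1b (-0.25) fell. Beside Grin2d in male FIDch vs. IS, Cspg4 (0.33) rose, and Calb1 (-0.22) fell. Beside Grin2a in male ISch vs. IS, Cspg4 (0.23) rose, and Aldh1l1 (-0.23), Olig1 (-0.23), Cldn5 (-0.31), Calb1 (-0.22) and C1ql2 (-0.23) fell. Beside Gria2, Grin2c and Grin2d in male FIDch vs. FID, Mbp (0.29), Cspg4 (0.40), Cldn5 (0.23), Esam (0.30), Rgs14 (0.23) and Lef1 (0.35) rose. Lower there were Vip (-0.27), Aqp4 (-0.27), Calb1 (-0.23), Drd1 (-0.47), Ttr (-6.25, largely from the same library) and Calb2 (-0.26).

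Among females, beside Grin2d and Grin3a in FID vs. IS, Slc32a1 (0.24) and Drd1 (0.67) rose. Beside Grin2a in female FIDch vs. IS, Aldh1l1 (0.28), Dsp (2.81), Prox1 (0.30), C1ql2 (0.40) and Calb1 (0.32) rose. Lower there were Gja1 (-0.23), Pdgfra (-0.22), Cx3cr1 (-0.28), Rgs14 (-0.22), Ttr (-1.05) and Aqp1 (-0.99). With Grin2c in female ISch vs. IS, Aldh1l1 (0.36), Dsp (2.87), C1ql2 (0.51), Prox1 (0.39), Calb1 (0.34) and Zic1 (0.53) rose. Lower there were P2ry12 (-0.41), Cx3cr1 (-0.23) and Grik4 (-0.23). With Grin2d and Grin3a in female FIDch vs. FID, Aqp4 (0.30), Aldh1l1 (0.36), Dsp (2.95) and Prox1 (0.39) rose. Lower there were Slc32a1 (-0.25), Cspg4 (-0.21), Cx3cr1 (-0.32), Flt1 (-0.25), Prkcd (-0.34), Drd1 (-0.42) and Ttr (-1.69). With Grin2c in female FIDch vs. ISch, Camk2a (-0.25), Gja1 (-0.21) and Ttr (-0.78) fell.

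For the male interaction, Neurod2 (0.22), Nrgn (0.24), Slc32a1 (0.27), Aldh1l1 (0.35), Mbp (0.36), Mobp (0.25), Olig1 (0.33), Cldn5 (0.54), Bok (0.36), C1ql2 (0.31), Lef1 (0.49), Tcf7l2 (0.49) and Ppp1r1b (0.29) were positive. Negative there was Aqp4 (-0.32). For the female minus male difference in ISch vs. IS, beside Gria4 and Grin2c, Neurod2 (0.25), Aldh1l1 (0.59), Slc1a3 (0.23), Olig1 (0.25), Cldn5 (0.32), C1ql2 (0.74), Dsp (3.26), Calb1 (0.56) and Ppp1r1b (0.28) were positive. Negative there were Cx3cr1 (-0.27), C1qa (-0.36) and Folr1 (-0.99). For that in FIDch vs. FID, beside Gria2, Grin1 and Grin2d, Gad2 (0.31), Aqp4 (0.55), Aldh1l1 (0.23), Dsp (2.46), Prox1 (0.45), Calb1 (0.46) and Aqp1 (2.97) were positive. Negative there were Nrgn (-0.23), Slc32a1 (-0.44), Pvalb (-0.33), Mag (-0.27), Cspg4 (-0.63), Pdgfra (-0.21), Csf1r (-0.30), C1qa (-0.36), Flt1 (-0.39), Cldn5 (-0.31), Mpped1 (-0.36), Rgs14 (-0.43), Bok (-0.27), Prkcd (-0.65) and Lef1 (-0.58).

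Among the partners of these receptors, 6 lists of genes were read in the same comparisons. In female FIDch vs. FID, 4 of 15 postsynaptic density scaffold genes fell and 0 rose by edgeR, against 12.7% of all genes (median log2 fold change -0.18 against -0.0013 over all genes). Among them were Shank1 (-0.39, edgeR adjusted p = 0.0314), which links receptor complexes to the spine skeleton, and Dlgap4 (-0.21, edgeR adjusted p = 0.0273). Of 12 auxiliary subunit genes tested, 1 fell (Neto2, -0.39, edgeR adjusted p = 0.0273). Of 17 trafficking genes 2 fell (Olfm2, -0.22, and Grip2, -0.21), and of 8 glutamate supply genes 1 fell, the vesicular transporter gene Slc17a6 (-0.71, edgeR adjusted p = 0.0145). The kainate receptor gene Grik3 fell (-0.53), and of 7 co-agonist and editing genes 1 fell (Slc6a5, -0.84), with 0 rising in any of these lists. The counts in the lists other than the scaffold genes lay near the share over all genes. Grin2d and Grin3a fell in the same comparison.

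In female FID vs. IS 2 of 15 scaffold genes rose, against 6.47% of all genes that met the criterion. They were Shank1 (0.30, edgeR adjusted p = 0.0726) and Dlgap3 (0.20). Of 8 glutamate supply genes 1 rose, Slc17a6 (0.70, edgeR adjusted p = 0.113), and 1 fell, the glutamine synthetase gene Glul (-0.22). Grik3 (0.28) rose, and of 17 trafficking genes 1 did (Olfm2, 0.20). Since FID vs. IS and FIDch vs. FID share the FID rats, with opposite sign, opposite directions in them can arise from those rats alone and are not separate results. In female ISch vs. IS, Neto1 (-0.41, edgeR adjusted p = 0.0321), Nptxr (-0.30, edgeR adjusted p = 0.0184) and the D-serine transporter gene Slc7a10 (-0.29, edgeR adjusted p = 0.0164) fell, along with Grip2 (-0.20), Grik4 (-0.23) and Grik3 (-0.25). In female FIDch vs. IS, where 8.98% of all genes met the criterion, 1 gene fell in each of 4 lists: Neto2 (-0.23) of 12 auxiliary genes, Nptx2 (-0.21) of 17 trafficking genes, Homer2 (-0.36) of 15 scaffold genes and Slc7a10 (-0.25) of 7 co-agonist and editing genes. In female FIDch vs. ISch, against 4.57% of all genes, Neto2 (-0.22) and Homer2 (-0.31) fell.

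In male FIDch vs. FID, beside the fall of Gria2, 2 of 17 trafficking genes fell, against 13% of all genes that met the criterion, Sacm1l (-0.27, edgeR adjusted p = 0.0531) and the synaptic adhesion gene Lrrtm2 (-0.31, edgeR adjusted p = 0.0615). Slc17a6 (-0.46) and Grik3 (-0.23) fell and Glul rose (0.24, edgeR adjusted p = 0.0763), whereas 0 of 12 auxiliary, 0 of 15 scaffold and 0 of 7 co-agonist genes met the criterion by edgeR. In male FIDch vs. ISch, Lrrtm2 (-0.25), Sacm1l (-0.24) and Slc17a6 (-0.57) fell and Dlgap4 rose (0.22). In male ISch vs. IS, where Grin2a rose, Neto1 (0.21), Shisa6 (0.37) and Shank2 (0.35) rose, and Nptx2 (-0.41, edgeR adjusted p = 0.156), Olfm2 (-0.20) and Homer3 (-0.22) fell. In male FID vs. IS 2 of 15 scaffold genes fell, Dlgap3 (-0.21) and Homer3 (-0.31), against 4.62% of all genes that met the criterion. In male FIDch vs. IS 2 of 15 rose and 1 fell, among them Dlgap4 (0.24) and Homer3 (-0.21), against 6.12% of all genes.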

How the data were processed

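The values are counts per gene, deposited by the authors, who per the labels used FastQC, Trimmomatic, HISAT2 and featureCounts (Subread) against the rat build Rnor_6.0. The analysis used edgeR 4.0.16 and limma 3.58.1 under R 4.3.3. Low counts were removed with filterByExpr, libraries were scaled by the trimmed mean of M values, and the quasi-likelihood test was fitted to the groups of each comparison. A gene met the criterion at a log2 fold change beyond 0.2 and an unadjusted p under 0.05, the rule of the study, and Benjamini-Hochberg values were given beside it.

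The receptor genes and the lists set beside them were chosen with earlier results of these data known. Of each pathway list, at most 2 genes per pairwise comparison were named, those at the criterion with the smallest unadjusted p. Markers were named from the most abundant gene of each list and from those at the criterion beside a receptor gene at it. For each receptor gene, at most 2 genes were named, from the 2 most alike in pattern.

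Alternatives were DESeq2 1.42.0, the likelihood ratio test and the exact test of edgeR, factors by RLE, library size alone, 2 other filters, 1 fit of all 4 groups, replicate number as a block, other thresholds, each library left out in turn, and the libraries with another form of name left out. The number in the library name as a block and the sex difference in FIDch vs. FID were added after the values had been seen. The code was tested on simulated data with known differences.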

Additional observations from a re-analysis of the deposited data

Results flagged for a closer look

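Within each group of 4 replicates, a Dixon test marked single receptor gene values far from the other 3. It was applied to 80 groups, where chance marks about 1 in 20, and it marked 5. Gria1 in male IS replicate 1 was 417 CPM against 503 to 517 CPM in the other 3. Gria2 in female ISch replicate 2 was 1095 CPM against 1004 to 1016 CPM. Grin1 in male FID replicate 2 was 620.4 CPM against 689 to 699 CPM. Grin2a in female FIDch replicate 4 was 96.65 CPM against 174 to 186 CPM. Grin2d in male FIDch replicate 3 was 14.48 CPM against 18.1 to 18.8 CPM. No library was left out of the values in the report for this reason.

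Other values were marked because a difference between diets was unlike in another diet or the other sex at the criterion. For the male interaction of iron and choline these were -0.315 for Gria2, -0.236 for Gria3, -0.273 for Gria4 and 0.321 for Grin2c. For the female minus male difference in ISch vs. IS they were -0.278 for Gria4 and 0.298 for Grin2c. For the same difference in FIDch vs. FID, chosen after the values had been seen, they were 0.21 for Gria2, -0.242 for Grin1 and -0.657 for Grin2d.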

How the results depend on the processing

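The number of receptor genes at the criterion depended on single libraries and on the tool. Batch and sex cannot be told apart, 4 rats per group leave small differences unseen, and the labels do not give the meaning of library names. In male FID vs. IS the count was 1, 2 with replicate as a block, 0 by adjusted p, and 0 (without IS replicate 4) to 2 (without IS replicate 3) with a library left out. Male FIDch vs. IS had 1, with 0 by DESeq2, with the block, without the libraries of another name form and by adjusted p, and 0 (without IS replicate 1) to 1 (without IS replicate 3). Male ISch vs. IS had 1, with 0 by DESeq2, with the block, without the libraries of another name form and by adjusted p, 2 with all genes of at least 1 count, 3 without a fold limit, and 0 (without IS replicate 1) to 4 (without IS replicate 3). With 4 groups in one fit its count was also 1, with Grin2d in place of Grin2a. Male FIDch vs. FID had 3, 4 with the block, 0 by adjusted p, and 2 to 4 with a library left out. Male FIDch vs. ISch had 0, with 2 at 1 count, 1 with the block, 1 without the libraries of another name form, 3 without a fold limit, and 0 (without ISch replicate 1) to 4 (without FIDch replicate 2). The male interaction had 4, 6 at 1 count, 5 with the block, 0 by adjusted p, and 3 to 6 with a library left out.

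Female FID vs. IS had 2, with 1 by the likelihood ratio test, 1 by the edgeR exact test, 0 with 4 groups in one fit, 0 by adjusted p, and 1 (without IS replicate 1) to 3 (without IS replicate 3). Female FIDch vs. IS had 1, with 0 by DESeq2, 2 at 1 count, 0 with the block, 0 by adjusted p, and 0 (without IS replicate 1) to 2 with a library left out. Female ISch vs. IS had 1, 0 by adjusted p and 0 to 2 with a library left out. Female FIDch vs. FID had 2, 3 by the likelihood ratio test, by the edgeR exact test and at 1 count, 0 by adjusted p, 4 without a fold limit and 1 to 3 with a library left out. Female FIDch vs. ISch had 1, with 2 by the likelihood ratio test, 0 by library size alone, 2 by the edgeR exact test, 2 with 4 groups in one fit, 2 with the block, 0 by adjusted p, 2 without a fold limit, 3 with library name number as a block, and 0 to 2 with a library left out. The female interaction had 0 in every left-out fit. Sex differences had 0 in FID vs. IS (0 to 2), 0 in FIDch vs. IS (0 to 1), 2 in ISch vs. IS (3 at 1 count, 0 by adjusted p, 1 to 4) and 3 in FIDch vs. FID (1 by adjusted p, 2 to 3).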

Other observations

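Grin3b, the GluN3 gene outside the 10 followed, was read with 7.54 to 11.8 CPM in male IS, 8.51 to 11.2 CPM in ISch, 6.83 to 9.835 CPM in FID and 9.18 to 10.5 CPM in FIDch. In females Grin3b was at most 0.116 CPM in any library and 0 in all 4 ISch libraries, so the female values rest on 0 to 3 counts. Males and females were sequenced in different batches, and Grin3b overlaps Tmem259 in the RefSeq annotation.

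The female minus male difference in FIDch vs. FID met the criterion for 7 of the 15 scaffold genes, all negative by edgeR, against 17.7% of 15143 genes (1134 positive and 1553 negative). Among them were Shank1 (-0.59, edgeR adjusted p = 0.00978), Dlgap4 (-0.42, edgeR adjusted p = 0.0102) and Dlgap3 (-0.49, edgeR adjusted p = 0.0248). Grin2d and Grin1 were negative and Gria2 was positive (0.21) in the same contrast, which was chosen after the receptor values had been seen. In ISch vs. IS the difference was -0.62 for Neto1 (edgeR adjusted p = 0.0224).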
